A study of Mus musculus with 9 samples.

Results

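Long noncoding RNA genes were examined in mouse regulatory T cells (Tregs) cultured without interleukin-2 (IL-2), with wild-type (WT) IL-2 or with orthogonal (ortho) IL-2. The genes were taken from the 9 deposited tables, which hold 31682 transcripts of 23992 gene symbols. A symbol was kept when all of its rows carried a RefSeq noncoding RNA accession (3383 symbols), when its transcript was longer than 200 bases and it was not named as a microRNA, snoRNA or scaRNA (2123 symbols), and when its mean level over the 9 libraries reached 5 RPKM, the deposited read count scaled by transcript length and library depth. This left 152 genes, chosen on their mean level over all groups and not on a difference between groups. The members just inside the threshold were 5430437J10Rik (5.00 RPKM), Znf41-ps (5.09 RPKM) and Fam120aos (5.11 RPKM), and just outside it lay Gpr137b-ps (4.98 RPKM), Rab10os (4.97 RPKM) and Gm1943 (4.93 RPKM). All 152 members passed the filter on low values used for testing. However, 12 of them had a mean below 5 RPKM in at least 1 group and so met the rule through the groups where they were higher. With no IL-2, 8 lay below it: 0610012G03Rik, 2310009A05Rik, 6530402F18Rik, Gm17757, Gm18853, Gm3219, Rab26os and Zfp862-ps. With each cytokine, 4 lay below it: 2810013P06Rik, 5430437J10Rik, Fam120aos and Znf41-ps. The direction of their differences from no IL-2 is in part set by the rule.

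By RefSeq, the name long noncoding RNA (lncRNA) fitted 72 of the 152 members. RefSeq now lists 67 of them as pseudogenes and 10 as protein coding, 1 (Slfn10-ps) was counted with the pseudogenes by its name and GENCODE type, and 2 (Gm17066 and LOC106740) were not classified. The 72 lncRNAs fell into 13 hosts of small nucleolar RNAs (snoRNAs) and 59 others; 12 of the hosts hold an annotated snoRNA, while Snhg20 is a host by name only. Their transcripts differed in size: the median length was 586 bases in the hosts and 2028 bases in the other lncRNAs, against 2732 bases over all 10702 genes tested. The median GC content was 47.0% in hosts and in other lncRNAs alike. GENCODE differs for some of the other lncRNAs. It gives a protein-coding type for Zfp91Cntf, Gm20605, A630089N07Rik, Raver1-fdx1l and ChkbCpt1b, and a pseudogene type for BC064078 and 5430437J10Rik. These genes were kept in the class that RefSeq gives.

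Noncoding RNA genes act in several ways. A snoRNA host gene is transcribed to give small RNAs cut from its introns, which guide chemical changes on ribosomal RNA, while its spliced exons are often short-lived RNAs that ribosomes enter and nonsense-mediated decay removes. Other lncRNAs stay in the nucleus and build or sit in nuclear bodies, such as Neat1 in paraspeckles and Malat1 at splicing speckles, or act on the chromosome they are made from, such as Xist on the inactive X. IL-2 is the growth and survival signal of Tregs and acts through the transcription factor STAT5.

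All cells were Foxp3-GFP-positive Tregs from the spleens of BALB/c mice carrying oIL-2Rβ by transduction, a changed (orthogonal) beta chain of the IL-2 receptor meant to answer a matching changed cytokine, tagged with human EGFR. All groups had grown with beads against CD3 and CD28 and with 1000 IU/mL human IL-2 for 48 h, were enriched on magnets for the tag, and were kept overnight without IL-2. For the last 4 h, 3 cultures received no IL-2, 3 received WT IL-2 at 20000 IU/mL and 3 received ortho IL-2 at 2000000 IU/mL. The units per mL of the 2 cytokines thus differed, no untransduced cells were among the libraries, and a growth text attached to the samples describes another assay. The labels do not say that replicates came from separate animals or cultures, so p-values measure the spread between these samples only. Because RNA was taken from bulk cultures, fewer cells of a type and less RNA per cell cannot be told apart.

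The libraries held 16581624 to 58182835 reads in the transcripts taken, 1 per symbol. A member had between 25 and 153096 reads in a library. The level used below is the depth-scaled count (CPM) after TMM scaling, divided by transcript length in kilobases. Summed levels of 8 T cell and Treg markers were 2327 to 2371 with no IL-2, 3123 to 3205 with WT IL-2 and 3157 to 3187 with ortho IL-2. Those of 8 B cell markers were 3.82 to 4.23, 3.21 to 3.78 and 3.89 to 4.15, and those of 9 myeloid markers 3.80 to 4.34, 3.27 to 3.65 and 3.17 to 3.66. Those of 8 CD8 T and NK cell markers, 1 of them without a read, were 10.5 to 11.2, 11.9 to 12.6 and 12.4 to 12.9. Those of 9 erythroid, platelet and stromal markers were 84.8 to 89.1, 67.7 to 69.0 and 66.4 to 69.7. All 8 T cell and Treg markers passed the filter on low values. Only 1 B cell, 1 myeloid, 2 CD8 T and NK cell and 1 erythroid, platelet and stromal marker did. The sums of those sets thus rest on few genes and do not measure a cell type. The part of the marker sets in the results below was not tested. Reads outside the transcripts taken, which may lie in introns or in other transcripts, made up 38.9 to 43.3% of the number that the RPKM values were divided by with no IL-2, 29.1 to 34.9% with WT IL-2 and 25.7 to 33.0% with ortho IL-2. This share, called the outside share below, did not overlap between no IL-2 and either cytokine, and it is set beside the results it moves with.

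The first question was whether noncoding genes changed with WT IL-2. Among all 10702 genes tested, 47.9% were called (25.0% higher and 22.9% lower, edgeR quasi-likelihood test, Benjamini-Hochberg adjusted p under 0.05), with a median log2 fold change of 0.01. Of the 59 lncRNAs other than snoRNA hosts, 30 were called lower and 7 higher, and their median log2 fold change was -0.36. Of the 13 snoRNA hosts, 1 was called lower and 1 higher, with a median of 0.05. The 68 pseudogenes had 13 called higher and 9 lower, with a median of 0.04, and the 10 genes now listed as protein coding had 4 higher and 1 lower. Over all 152 members, 25 were higher and 41 lower. The share called lower was therefore 50.8% in the other lncRNAs beside 22.9% of all genes. The libraries with WT IL-2 lay below those without, with no overlap, in 33 of the 59 other lncRNAs (28.5% of all genes) and above them in 9 (30.3% of all genes). In the hosts these counts were 1 and 3, and over all members the groups did not overlap in 81 (58.8% of all genes).

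With ortho IL-2, 56.0% of all genes were called against no IL-2 (28.5% higher and 27.4% lower), with a median log2 fold change of 0.01. Both comparisons use the same 3 libraries without IL-2, so they are not independent. Of the 59 other lncRNAs, 36 (61.0%) were called lower and 7 higher, with a median of -0.38. Of the 13 hosts, 1 was lower and 2 were higher, with a median of 0.10. Of the 68 pseudogenes 17 were higher and 13 lower, and of the 10 protein-coding genes 4 were higher and 2 lower. The ortho IL-2 libraries lay below those without IL-2, with no overlap, in 37 of the 59 other lncRNAs (32.2% of all genes) and above them in 8 (33.9% of all genes), and in the hosts in 2 and 4. Over all members the groups did not overlap in 98 (66.1% of all genes). A mean of at least 5 RPKM in every group was reached by 55 of the other lncRNAs; 28 of these were lower and 6 higher with WT IL-2, and 33 lower and 6 higher with ortho IL-2.

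The split depended on how libraries were scaled. With the RPKM divisor as library size and no TMM scaling, the median over all genes moved to 0.22 with WT IL-2 and 0.29 under ortho IL-2. The called split of all members then turned to 54 higher and 26 lower with WT IL-2 and to 70 higher and 32 lower with ortho IL-2, while that of all genes became 4630 higher and 895 lower, and 5707 higher and 946 lower. The members thus kept a smaller share of higher calls (67.5% and 68.6%) than all genes (83.8% and 85.8%). In the other lncRNAs the split was 14 higher and 19 lower, and 15 higher and 22 lower. Relative to the median of all genes, the other lncRNAs lay at -0.37 and -0.40 under TMM and at -0.37 and -0.39 under that scaling. The hosts had 4 higher and 1 lower, and 8 higher and 1 lower.

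**Figure D1:**
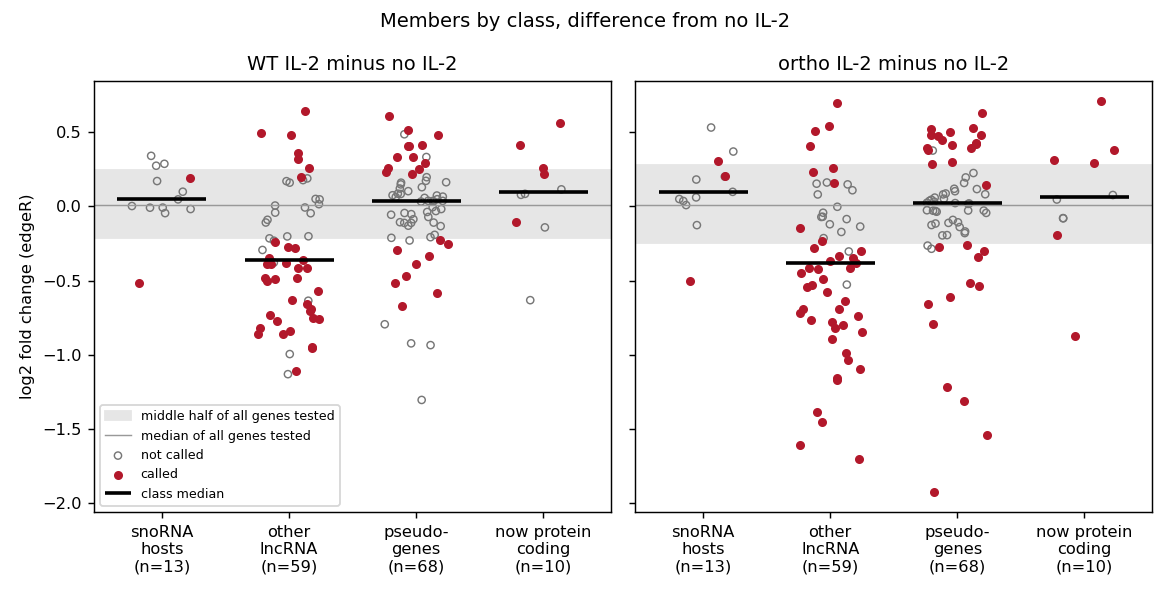
Log2 fold change (edgeR) of each member against no IL-2, with WT IL-2 on the left and ortho IL-2 on the right, by class; filled points were called, open points were not, black bars are class medians, and the grey band spans the 25th to 75th percentile of all genes tested. The medians of the other lncRNAs, -0.36 and -0.38, lie below the band, and those of the hosts, 0.05 and 0.10, lie inside it.

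Reads could belong to overlapping genes, because neither the use of strand nor the read counter is given in the sources used here. Of the 59 other lncRNAs, 39 shared no exon with a protein-coding gene on either strand. Among these 39, 22 were called lower and 2 higher with WT IL-2 (median -0.42), and 27 lower and 2 higher with ortho IL-2 (median -0.49). The other lncRNAs together took 1.08 to 1.34% of the reads in genes with no IL-2, 0.925 to 0.993% with WT IL-2 and 0.815 to 0.956% with ortho IL-2. The hosts took 0.042 to 0.044%, 0.042 to 0.045% and 0.043 to 0.049%.

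The snoRNA hosts were described one by one, from the highest level down. In 2410006H16Rik, which holds 3 annotated snoRNAs, the level was 193, 212 and 183 with no IL-2, 226, 181 and 179 with WT IL-2, and 199, 179 and 251 with ortho IL-2. The groups overlapped, and neither difference was called (log2 fold changes of -0.01 and 0.10). In Snhg1, with 8 snoRNAs, the level was 94.6, 93.2 and 99.6, then 89.6, 98.6 and 95.5, then 85.5, 88.7 and 88.9. The ortho IL-2 libraries lay below all others, but the difference from no IL-2 was not called (log2 fold change -0.13, adjusted p = 0.069, edgeR).

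Snhg5 was the one host that fell. Its level was 76.3, 74.4 and 71.0 with no IL-2, 50.7, 51.1 and 53.5 with WT IL-2, and 48.0, 54.5 and 54.2 with ortho IL-2. All 6 libraries with a cytokine lay below all 3 without. Snhg5 was 1.43-fold lower with WT IL-2 (log2 fold change -0.51 ± 0.06 SE, adjusted p = 6.6e-05, edgeR) and 1.42-fold lower with ortho IL-2 (-0.50 ± 0.06, adjusted p = 7.4e-05). It was called lower in every alternative fit as well, including the fit with the outside share as covariate (-0.55 in both, adjusted p = 0.0064 and 0.022).

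Gas5 (growth arrest-specific 5) rose slightly. It is known to accumulate in resting or starved cells, in which translation and with it nonsense-mediated decay of its exons slow down. Its level was 47.7, 46.0 and 44.9 with no IL-2, 49.9, 56.1 and 52.4 with WT IL-2, and 52.6, 54.8 and 52.8 with ortho IL-2. All libraries with a cytokine lay above those without, and the rise was 1.14-fold (log2 0.19 ± 0.05, adjusted p = 0.012, edgeR) and 1.15-fold (0.21 ± 0.05, adjusted p = 0.0073). With the outside share as covariate the values were 0.18 and 0.20 and were not called (adjusted p = 0.24 and 0.32).

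Snhg15, listed in the tables as Gm11974, had 26.3, 29.3 and 28.0 with no IL-2, 32.1, 32.6 and 29.4 with WT IL-2, and 33.5, 36.4 and 33.8 with ortho IL-2. The 3 groups did not overlap. It rose 1.24-fold with ortho IL-2 (log2 0.31 ± 0.07, adjusted p = 0.0059, edgeR), while its 1.13-fold difference with WT IL-2 was not called (adjusted p = 0.080). The ortho value was 0.18 with GC offsets (adjusted p = 0.061) and 0.15 with the covariate (adjusted p = 0.60).

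No difference was called in the remaining hosts. Snhg8 stayed between 32.6 and 36.9 in all 9 libraries. Snhg12 had log2 fold changes of 0.10 and 0.04, Snhg3, whose exons overlap the coding gene Rcc1 on the same strand, -0.04 and 0.01, and Snhg6, which overlaps Mcmdc2 on the opposite strand, 0.28 and 0.18; without ortho IL-2 replicate 1 the latter was 0.33 and was called (adjusted p = 0.048). In 1110038B12Rik, with 2 snoRNAs, the level was 19.8, 20.3 and 18.2, then 21.3, 19 and 18.1, then 22.1, 20.7 and 24.1, so that ortho IL-2 lay above no IL-2 (log2 0.20, adjusted p = 0.091). Epb41l4aos, listed as 2410004N09Rik, had 0.05 and 0.06. Snhg20, listed as 2810008D09Rik, had 0.29 and 0.37 with overlapping groups. Rab26os, the lowest host, had 6.52, 7.01 and 5.18 with no IL-2, 6.46, 6.98 and 10.8 with WT IL-2, and 9.93, 9.91 and 7.93 with ortho IL-2 (log2 0.34 and 0.53, adjusted p = 0.23 and 0.061, edgeR). It met the level rule through the cytokine groups (3.65 RPKM with no IL-2, against 5.43 and 6.54 RPKM).

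**Figure D2:**
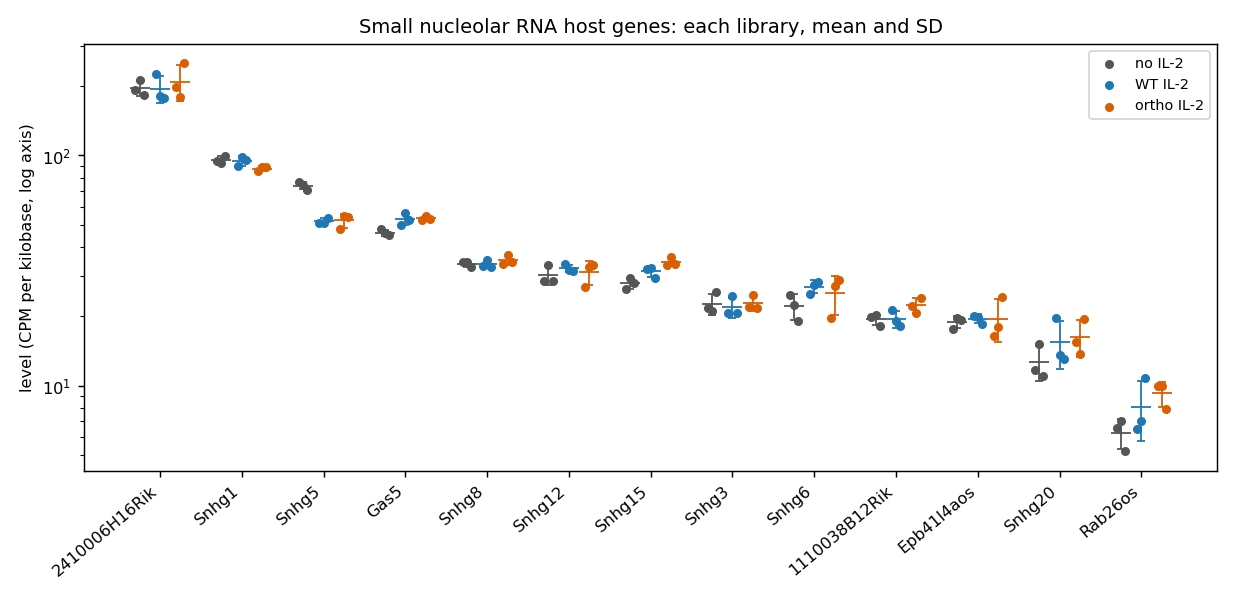
Level of the 13 snoRNA hosts in each library (CPM per kilobase, log axis), with 3 libraries in each of no IL-2 (grey), WT IL-2 (blue) and ortho IL-2 (orange); horizontal bars are means and vertical bars SD. Snhg5 is lower in all libraries with a cytokine, Gas5 slightly higher, and most other hosts overlap between groups.

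Many host RNAs start with a tract of C and T bases, the 5′ terminal oligopyrimidine tract, through which growth signals control translation of the ribosomal protein genes that carry it. Start sites were taken from the RefSeq promoter table (GRCm38.p6), which held 11 of the 13 hosts and 44 of the 59 other lncRNAs. A C at the first transcribed base followed by at least 3 further bases that were C or T, on the transcribed strand, was found in 5 of 11 hosts (45.5%), in 3 of 44 other lncRNAs (6.82%), and in 1214 of all 27025 genes in that table (4.49%). None of the 26 other lncRNAs with a start site that were called lower with ortho IL-2 had it. The windows below run from 30 bases before the start to 30 bases after it, 5′ to 3′, with the pyrimidine run at the start in capitals. They are shown for the 5 hosts with the run, for Snhg5, the host that fell, which has no such run, and for Snhg15, which has an E-box, in capitals, downstream of its start. Gas5 and 1110038B12Rik each had 2 start sites in the table, and that with the run is shown; the Gas5 transcript counted in the tables begins farther upstream.
Gas5, chr1:161035136-161035195, plus strand: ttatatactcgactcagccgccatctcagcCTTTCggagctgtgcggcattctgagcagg
Snhg8, chr3:123508307-123508366, minus strand: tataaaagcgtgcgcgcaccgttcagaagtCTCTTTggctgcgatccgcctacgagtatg
1110038B12Rik, chr17:34952439-34952498, minus strand: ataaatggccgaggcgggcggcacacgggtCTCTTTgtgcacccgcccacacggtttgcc
Rab26os, chr17:24528221-24528280, plus strand: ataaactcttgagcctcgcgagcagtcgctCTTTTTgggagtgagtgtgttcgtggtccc
2410006H16Rik, chr11:62602847-62602906, plus strand: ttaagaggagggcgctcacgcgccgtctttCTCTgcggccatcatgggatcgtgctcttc
Snhg5, chr9:88522868-88522927, minus strand: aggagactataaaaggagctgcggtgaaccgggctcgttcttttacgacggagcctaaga
Snhg15, chr11:6528731-6528790, minus strand: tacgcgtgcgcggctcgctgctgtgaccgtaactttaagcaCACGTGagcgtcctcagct
Of the 5 hosts with the run, Gas5 was called higher and the other 4 were not called in either comparison. Of the 6 hosts with a start site and no run, Snhg5 was called lower, Snhg15 was called higher with ortho IL-2, and Snhg1, Snhg3, Snhg12 and Snhg20 were not called.

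Other motifs were searched in the window from 250 bases before to 50 bases after the start, on both strands. The E-box CACGTG, bound by Myc and its relatives, was in 1 of 11 hosts (Snhg15) and in 3 of 44 other lncRNAs, against 8.09% of all genes in the table. The STAT-type motif TTCNNNGAA was in 0 of 11 hosts and 2 of 44 other lncRNAs, against 9.55% of all genes. The forkhead motif TGTTTAC was in none of these 55 windows, against 4.05% of all genes. These are matches of letters in a short window and say nothing of binding.

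Transcripts for the proteins that package snoRNAs rose together. Of 19 tested genes for proteins of the box C/D and H/ACA particles, 17 were called higher with each cytokine. Their median log2 fold changes were 0.73 and 0.69. None of the 19 was lower with WT IL-2 and 1 was lower with ortho IL-2. Protein levels were not measured, here or for the gene lists below. Naf1, an assembly factor of H/ACA particles, rose from 8.60 ± 0.301 (SD, n = 3) to 37.6 ± 3.09 with WT IL-2 and 34.0 ± 1.95 under ortho IL-2. Fbl (fibrillarin), the methyltransferase of box C/D particles, rose 1.97-fold and 1.96-fold, and Nop56, its partner, 1.89-fold and 1.87-fold. The snoRNA hosts, measured by their own transcripts and not by the snoRNAs that these proteins package, had medians of 0.05 and 0.10. In addition, 181 protein-coding genes that hold snoRNAs had medians of 0.02 and 0.02, with 52 higher and 34 lower with WT IL-2 and 48 higher and 39 lower with ortho IL-2, close to the shares of all genes (25.0% higher and 22.9% lower, and 28.5% and 27.4%).

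A separate list of noncoding host genes by name held 15 genes of the tables, of which 13 were tested. Over all genes 25.0% were called higher and 22.9% lower with WT IL-2, and 28.5% and 27.4% with ortho IL-2. The list had smaller shares, with 3 called higher (23.1%) and 2 lower (15.4%) with each cytokine. Besides Gas5 and Snhg5 these were 3 genes outside the 152 members: Dancr rose from 1.32 ± 0.452 (SD, n = 3) to 3.04 ± 0.149 with WT IL-2 and 2.78 ± 0.119 under ortho IL-2, Snhg7 rose with log2 fold changes of 0.65 and 0.57, and Snhg11 fell with -0.96 and -1.18. Their mean levels were 1.61, 3.36 and 0.865 RPKM.

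Factors of nonsense-mediated decay were mixed. Of 20 tested, 4 rose and 5 fell with WT IL-2, and 5 rose and 6 fell with ortho IL-2, shares near those of all genes. Eif4a3, a core of the exon junction complex, rose 1.26-fold and 1.29-fold, whereas Upf3b fell from 46.5 ± 1.75 to 30.8 ± 3.36 and 30.2 ± 3.22, and the endonuclease Smg6 fell from 20.2 ± 0.388 to 16.4 ± 0.418 and 16.1 ± 0.535. Of 19 genes of the RNA exosome and lncRNA turnover, 9 rose and 3 fell with WT IL-2, and 9 rose and 4 fell with ortho IL-2, against 25.0% higher and 22.9% lower, and 28.5% higher and 27.4% lower, over all genes. The catalytic exosome subunit Exosc10 rose 1.25-fold and 1.29-fold and Exosc2 1.44-fold and 1.38-fold, while Exosc8 fell from 142 ± 2.26 to 99.1 ± 4.22 and 103 ± 3.53.

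Malat1 and Neat1, the lncRNAs of highest mean level (269 and 147 RPKM), lay among those that fell. Of the next in level, AW112010 (132 RPKM) also fell, while 2410006H16Rik (133 RPKM) and Xist (118 RPKM) were not called. Malat1 (chr19:5795690-5802672, minus strand, 1 exon), a nuclear RNA of splicing speckles, had levels of 575, 426 and 702 with no IL-2, 367, 344 and 367 with WT IL-2, and 346, 352 and 282 with ortho IL-2. All libraries without IL-2 lay above the rest, but they were widely spread. The difference was 1.58-fold lower with WT IL-2 (log2 -0.66 ± 0.15, adjusted p = 0.0058, edgeR) and 1.74-fold lower with ortho IL-2 (-0.80 ± 0.15, adjusted p = 0.0018). With the outside share as covariate it was -0.42 and -0.49 and was not called (adjusted p = 0.31 and 0.34).

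Malat1 ends in a way that bears on how it is measured. The library kit is one for messenger RNA, which captures tails of A. The 3′ end of Malat1 is cut by RNase P and has no added tail; instead U-rich runs fold with an A-rich tract written in the genome into a triple helix that protects the end. Those elements are shown in capitals below, as DNA letters, at positions 6596 to 6701 of the 6983 bases of the GENCODE transcript (GRCm38, chr19:5795972-5796077, minus strand).
Malat1: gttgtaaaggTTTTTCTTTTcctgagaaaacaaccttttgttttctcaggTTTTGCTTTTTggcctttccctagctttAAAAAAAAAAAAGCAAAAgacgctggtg
How well this tract was captured in each library was not tested.

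Neat1 (chr19:5824708-5845480, minus strand), the scaffold of paraspeckles, had 344, 278 and 323 with no IL-2, 189, 171 and 193 with WT IL-2, and 181, 204 and 167 with ortho IL-2. The transcript counted was 3177 bases long, far shorter than this span, so longer Neat1 transcripts were not measured apart. The groups with a cytokine lay below all libraries without. It was 1.71-fold lower with WT IL-2 (log2 -0.77 ± 0.09, adjusted p = 9.7e-05, edgeR) and 1.71-fold lower with ortho IL-2 (-0.78 ± 0.09, adjusted p = 8.7e-05). Only the ortho value lost its call with the covariate (-0.47, adjusted p = 0.099). Of 16 genes for paraspeckle and nuclear speckle proteins, WT IL-2 gave 3 called higher and 1 lower, and ortho IL-2 gave 4 higher and 1 lower. These shares were not above those of all genes (25.0% and 22.9%, 28.5% and 27.4%). Srsf2 rose 1.15-fold with each and Hnrnpk 1.19-fold and 1.18-fold, and Matr3 fell from 149 ± 3.10 to 119 ± 20.03 and 110 ± 13.

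A630023P12Rik (chr5:110514923-110525980) had 159, 138 and 143 with no IL-2, 76.7, 86.5 and 79.7 with WT IL-2, and 87.9, 94.0 and 83.1 with ortho IL-2. All 3 libraries without IL-2 lay far above the rest. It was 1.82-fold and 1.67-fold lower (adjusted p = 7.2e-06 and 2.0e-05, edgeR), and it stayed called with the covariate (log2 -0.77 and -0.63). Gm19757 fell in a like way, from 40.8, 39.4 and 40.7 to 21, 23.5 and 23.9 and to 20.6, 25.5 and 21.1, or 1.77-fold and 1.80-fold. A630089N07Rik, which GENCODE lists as protein coding, fell 1.79-fold and 1.98-fold. The single-exon gene 2810013P06Rik, which met the level rule through the libraries without IL-2 (6.69 RPKM, against 4.6 and 4.63 RPKM), fell from 11.9, 11.5 and 10.9 to 6.45, 6.99 and 6.86 and to 6.17, 7.02 and 6.34. Its groups did not overlap, and it remained called with the covariate (-0.74 and -0.80).

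Further lncRNAs with tight replicates were chosen after their values were seen. AW112010, known from interferon-treated and activated immune cells, had 230, 259 and 233, then 174, 195 and 184, then 174, 196 and 170, which is 1.30-fold and 1.34-fold lower. The call was lost under the scaling by RPKM divisor (log2 -0.17 and -0.15). Gm10845 had 112, 106 and 113, then 59.6, 69.6 and 69.9, then 64.5, 69.6 and 60.7, and was 1.66-fold and 1.70-fold lower. A430093F15Rik had 25.9, 25.9 and 25.4, then 16.5, 14.8 and 16.6, then 16.1, 16.1 and 15.6, the smallest spread of those shown here (log2 -0.69 ± 0.06 with each). Both of the last stayed called with the covariate.

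Some lncRNAs fell beside a coding neighbour. Chaserr, listed as 1810026B05Rik, lies upstream of Chd2 and is known to restrain it; the tables' transcript shares exon sequence with Chd2 on the same strand. Chaserr was 1.55-fold lower with WT IL-2 and 1.65-fold lower under ortho IL-2, and Chd2 was at 0.756 and 0.735 of its level without IL-2 (adjusted p = 0.00098 and 0.00049, edgeR). Lockd, listed as 1190002F15Rik, lies downstream of the cell cycle inhibitor Cdkn1b. Lockd was 1.28-fold and 1.29-fold lower, and Cdkn1b fell to 0.654 and 0.615 of its level. The call of Lockd was lost under the scaling by RPKM divisor (log2 -0.14 and -0.09). A430093F15Rik lies 1921 bases from Cd5, an inhibitory receptor of T cells, which fell too (log2 -0.56 and -0.45).

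Other pairs moved in opposite directions. Tug1 (chr11:3639785-3648814), a widely expressed lncRNA, had 63.9, 65.7 and 67.2, then 48.4, 58.7 and 55.7, then 52.8, 55.3 and 48.0. It fell 1.21-fold and 1.26-fold (adjusted p = 0.013 and 0.0042, edgeR), but was not called under the scaling by RPKM divisor (log2 -0.06 in both). Its neighbour Morc2a, 375 bases away, rose (log2 0.30 and 0.28). I730030J21Rik fell 1.48-fold and 1.40-fold, while Galnt6, 1129 bases away, rose (0.31 and 0.41). In all, 34 members without a coding overlap on their strand had a coding neighbour within 10000 bases that was tested. The neighbour was called in 18 of the 34 pairs with WT IL-2 (47.9% of all genes were called) and in 24 with ortho IL-2 (56.0% of all genes). Both genes were called in 9 and 14 pairs, in the same direction in 5 and 9 of them and in opposite directions in 4 and 5.

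**Figure D3:**
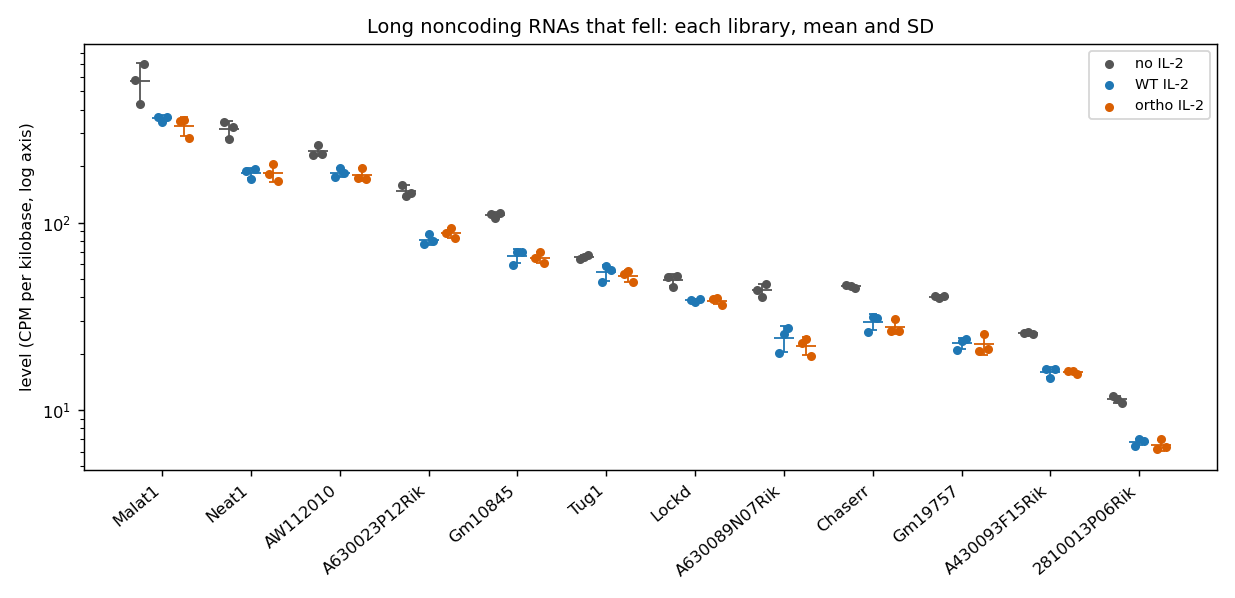
Level of 12 lncRNAs that fell, in each library (CPM per kilobase, log axis), with 3 libraries in each of no IL-2 (grey), WT IL-2 (blue) and ortho IL-2 (orange); horizontal bars are means and vertical bars SD. In each gene the 3 libraries without IL-2 lie above the 6 with a cytokine; Tug1, Lockd and AW112010 were not called under the scaling by RPKM divisor.

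Several well-known lncRNAs were not called. Xist, which coats the inactive X chromosome, had 196, 180 and 208, then 168, 179 and 195, then 179, 181 and 144, with overlapping groups (log2 -0.11 and -0.21, adjusted p = 0.38 and 0.083, edgeR). Its value was 0.10 and 0.06 under the scaling by RPKM divisor. Norad, listed as 2900097C17Rik and known to hold Pumilio proteins, had log2 fold changes of 0.01 and -0.07. Its transcript carried 11 matches to the Pumilio motif TGTANATA, or 2.24 per kilobase, beside 0.130 per kilobase over the other lncRNA transcripts searched. Oip5os1, also called Cyrano and listed as 1700020I14Rik, had -0.01 and -0.09, and Firre, listed as 6720401G13Rik, -0.04 and 0.00. Of 14 genes for Xist partner proteins, 3 were called higher and 1 lower with each cytokine. Over all genes the shares were 25.0% and 22.9% for WT IL-2, and 28.5% and 27.4% for ortho IL-2. The Polycomb gene Jarid2 rose 1.25-fold and 1.24-fold, and Ezh2 rose 1.26-fold and 1.16-fold. The lamin B receptor gene Lbr fell from 140 ± 2.77 to 121 ± 3.06 and 119 ± 1.44.

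Several other well-known noncoding RNAs lay below the level rule. The Xist neighbours Jpx and Ftx had means of 2.03 and 3.80 RPKM, Kcnq1ot1 1.67 RPKM and Dleu2 2.03 RPKM. Terc (0.102 RPKM), Rmrp (0.762 RPKM), Rpph1 (0.837 RPKM), Tsix (0.233 RPKM), Meg3 (0.0442 RPKM), Miat (0.0293 RPKM), H19 (0.0114 RPKM) and Nron (0.0011 RPKM) were lower still. Because the library kit captures tails of A, an RNA without such a tail can read low whatever its abundance. Which of these RNAs carry a tail was not tested. Genes for proteins of telomerase, RNase P and MRP and the 7SK particle were set beside these. Of 18 tested, 6 rose and 3 fell with WT IL-2, and 7 rose and 3 fell with ortho IL-2. Over all genes the shares were 25.0% and 22.9%, and 28.5% and 27.4%. Dkc1, shared with H/ACA particles, rose from 12.7 ± 0.301 to 23.1 ± 2.04 and 21.5 ± 1.34, and the 7SK inhibitor protein Hexim1 fell from 10.3 ± 0.170 to 7.84 ± 0.269 and 7.83 ± 0.175.

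The other lncRNAs that rose were 7 in each comparison. Pvt1 (chr15:62037986-62260215), the neighbour of Myc, had 13.2, 11.5 and 12.6 with no IL-2, 15.0, 15.2 and 14.6 with WT IL-2, and 14.8, 14.9 and 14.2 with ortho IL-2. The groups did not overlap, and the rise was 1.20-fold and 1.18-fold (adjusted p = 0.0047 and 0.0078, edgeR). Myc itself rose 5.48-fold and 5.40-fold. Flicr, listed as Ppp1r3fos and known to lower Foxp3 in Tregs, had 21.9, 20.4 and 21.6, then 34.3, 26.5 and 28.3, then 29.3, 29.9 and 31.7, a rise of 1.40-fold and 1.42-fold. It shares exon sequence with Foxp3 on the same strand, and Foxp3 rose 1.62-fold and 1.72-fold, so the reads of the 2 genes cannot be told apart. Neither Pvt1 nor Flicr was called with the covariate (adjusted p = 0.057 and 0.13 for Pvt1, 0.074 and 0.13 for Flicr).

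Among the remaining lncRNAs that rose, 3 had exons shared with a coding gene on the same strand. 1700097N02Rik overlaps Glo1 and rose 1.56-fold and 1.46-fold. Raver1-fdx1l is a read-through transcript over Raver1 and Fdx1l; its levels were 18.1, 18.5 and 17.6, then 33.9, 20.8 and 21.7, then 27.6, 24.9 and 35. The first WT IL-2 library was far above the other 2, and without it the WT value was 0.24 (adjusted p = 0.13) in place of 0.50; the WT call was also lost without any 1 of the libraries without IL-2. 6530402F18Rik overlaps Ntng2 and rose 1.29-fold and 1.32-fold. It met the level rule through the cytokine groups (4.43 RPKM with no IL-2, against 6.60 and 7.08 RPKM). Its rise is therefore in part set by the rule. 5430416N02Rik (1.25-fold and 1.20-fold) and 9130221H12Rik (1.15-fold and 1.11-fold) were small rises. 9130221H12Rik shares exon sequence with Gsk3a on the opposite strand, and Gsk3a had log2 fold changes of 0.21 and 0.24. Because the use of strand is not given, the reads of 9130221H12Rik and Gsk3a may not be told apart. The WT call of 5430416N02Rik was lost without any 1 of the libraries without IL-2 and without WT IL-2 replicate 2 or 3 (log2 0.26 to 0.33, adjusted p = 0.051 to 0.074), and its ortho call without any 1 of the libraries without IL-2 and without ortho IL-2 replicate 1 or 3 (0.23 to 0.27, adjusted p = 0.094 to 0.14). The WT call of 9130221H12Rik was lost when replicate 1 or 3 of no IL-2 or replicate 2 of WT IL-2 was left out (0.17 to 0.20, adjusted p = 0.053 to 0.064), and its ortho call without any 1 of the 6 libraries compared (0.14 to 0.17, adjusted p = 0.069 to 0.12).

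The largest differences were in lncRNAs with a wide spread. Of the 59 other lncRNAs, 13 had a coefficient of variation over 20% in at least 1 group. Of these 7 were lower and 1 higher with WT IL-2, and 11 lower and 1 higher with ortho IL-2. The other 46 had 23 lower and 6 higher (median -0.24), and 25 lower and 6 higher (median -0.29), a split that became 12 lower and 13 higher, and 12 lower and 14 higher, under the scaling by RPKM divisor, which moves all genes. Relative to the median of all genes the 46 lay at -0.24 and -0.30 under either scaling.

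5430437J10Rik, which GENCODE lists as a pseudogene, met the level rule only through the libraries without IL-2. Its means were 7.88 RPKM there, 4.20 RPKM with WT IL-2 and 2.93 RPKM with ortho IL-2. Its fall is therefore in part set by the rule. It had levels of 19.5, 12.4 and 8.86 with no IL-2, 5.29, 3.09 and 10.5 with WT IL-2, and 8.29, 3.30 and 1.21 with ortho IL-2. The log2 fold change was -1.13 with WT IL-2, which was not called (adjusted p = 0.15, edgeR), and -1.70 with ortho IL-2 (adjusted p = 0.043). The ortho call was lost without no IL-2 replicate 1 or 2 or ortho IL-2 replicate 2 or 3 (-1.34, -1.76, -1.58 and -1.20, adjusted p = 0.15, 0.078, 0.099 and 0.089). Gm20337 (chr12:80942652-80945399) had 47.0, 38.5 and 63.3, then 21.7, 15.7 and 31.3, then 24.3, 16 and 8.56. Both of its differences were called (-1.11 and -1.61, adjusted p = 0.027 and 0.0044). The WT call was lost when replicate 1 or 3 of no IL-2, or replicate 1 or 2 of WT IL-2, was left out (-1.15, -0.90, -1.07 and -0.90, adjusted p = 0.058, 0.099, 0.059 and 0.082).

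A further 6 genes had this pattern, with the lowest level in ortho IL-2 replicate 3. Gm16702 had 34.8, 22.3 and 15.6, then 11.7, 7.18 and 17.9, then 14, 7.74 and 5.11 (-1.0, adjusted p = 0.076, and -1.45, adjusted p = 0.016). 4930511M06Rik was at -0.95 and -1.39, D330041H03Rik at -0.95 and -1.16, Gm20300 at -0.86 and -1.09 and 4930470H14Rik at -0.75 and -1.03, all called. Gm17644 was at -0.64, not called, and -1.17. Without no IL-2 replicate 1 the ortho calls of Gm16702 (-1.09, adjusted p = 0.075) and Gm17644 (-1.08, adjusted p = 0.059) and the WT calls of D330041H03Rik (-0.76, adjusted p = 0.072) and Gm20300 (-0.71, adjusted p = 0.075) were lost, the last also without WT IL-2 replicate 2 (-0.70, adjusted p = 0.058). Without WT IL-2 replicate 3 the WT difference of Gm16702 was called (-1.36, adjusted p = 0.037). The WT call of 4930470H14Rik was lost without any 1 of the libraries without IL-2 or WT IL-2 replicate 2 (-0.84 to -0.57), and that of 4930511M06Rik without any 1 of those 4 or WT IL-2 replicate 1 (-1.04 to -0.66). Within each group the library with the highest level of these genes was mostly the one with the largest share of reads outside genes. That held in all 3 groups for 12 of the 24 members of any class with a coefficient of variation over 20%, for 16 of all 152 members, for none of the 13 hosts and for 531 of 10702 genes (4.96%). The 24 were picked for their spread, and the share among all genes with a like spread was not determined. These counts therefore do not show a trait particular to the members. With that share as a covariate, 5430437J10Rik had log2 fold changes of 1.43 and 1.41, Gm16702 0.76 and 0.75 and Gm20337 0.11 and -0.11. The part of that share in these results was not tested further.

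**Figure D4:**
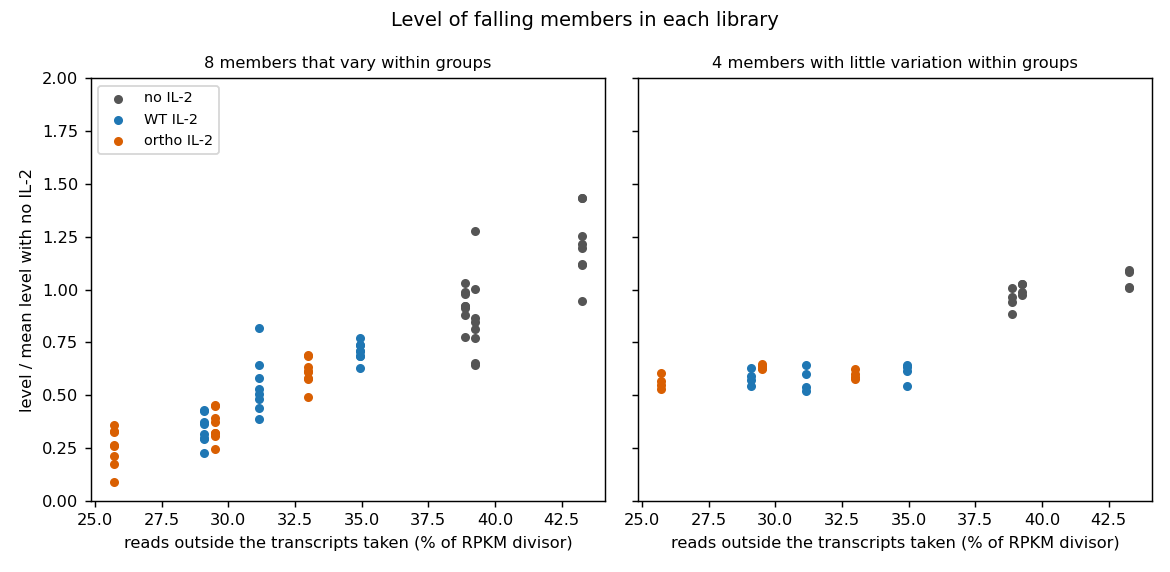
Level of each gene in each library, divided by its mean with no IL-2, against the share of reads outside the transcripts taken (percent of the RPKM divisor); on the left are 5430437J10Rik, Gm20337, Gm16702, 4930511M06Rik, Gm17644, D330041H03Rik, Gm20300 and 4930470H14Rik, on the right Neat1, Gm10845, A630023P12Rik and A430093F15Rik, with no IL-2 in grey, WT IL-2 in blue and ortho IL-2 in orange. On the left, within the groups with a cytokine, libraries with a larger share mostly lie higher. On the right the 6 libraries with a cytokine lie at about the same height across 25.7 to 34.9%. The genes on the left were picked for a wide spread within groups and those on the right for a narrow one. The even height on the right is therefore in part set by that choice.

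With that covariate the calls over all genes were 1217 higher and 913 lower for WT IL-2, and 925 higher and 648 lower for ortho IL-2. Of the 59 other lncRNAs 13 were then lower and 3 higher with WT IL-2 (median -0.04), and 8 lower and 1 higher with ortho IL-2 (median -0.07). Among the named genes that kept their call were A630023P12Rik, Gm19757, Gm10845, A430093F15Rik, Chaserr, 2810013P06Rik and Snhg5. The outside share did not overlap between no IL-2 and the cytokines, so in this fit share and group can hardly be told apart.

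The pseudogenes were counted together with their parents in part. For 14 of the 68, the tables place the transcript on another chromosome than RefSeq places the gene, and for each of these a coding gene in the tables had nearly the same reads in every library. Together with 4 other members, 18 had such a twin, a rule chosen after seeing the data (SD of the log2 read ratio over 9 libraries under 0.025). Twins were sought only among coding genes placed on the same chromosome and strand as the member. A member without a twin may therefore still share reads with a parent gene elsewhere. Gm15772 had the same count as Rpl26 in every library, and Gm12191, the member of highest level at 732 RPKM, had a read ratio of 1.00 to Rpl30. Gm6793 went with Hnrnpa3, Gm1821 with Ubb and Gm10052 with Hnrnpa1, so 5 of the 10 highest members were copies of ribosomal protein, ubiquitin or hnRNP genes. The reads of these pairs cannot be assigned to either gene. None of the 5 was called in either comparison.

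Among pseudogenes called higher, Nutf2-ps1 and Gm7334 were such twins, of Nutf2 and of the antiproliferative gene Btg3. Nutf2-ps1 had 20.2, 20.1 and 18.7, then 33.5, 27.1 and 29.6, then 30.8, 28.7 and 31.8, a rise of 1.53-fold and 1.55-fold, and Nutf2 had log2 fold changes of 0.60 and 0.61. Gm7334 rose 1.40-fold and 1.41-fold. Gm12070, at 349 RPKM and without a twin by that rule, had 457, 456 and 441, then 575, 522 and 492, then 601, 602 and 580. It rose 1.17-fold and 1.32-fold. Others without a twin were Gm20257 (1.43-fold and 1.40-fold), Gm6682 (1.33-fold and 1.44-fold), Gm5069 (1.33-fold and 1.44-fold) and Gm6981 (1.26-fold and 1.40-fold). Gm3219 (1.33-fold and 1.34-fold) was called in both comparisons, and its groups overlapped with ortho IL-2. Both calls were lost without no IL-2 replicate 1 or 3 and without replicate 1 or 3 of the cytokine (log2 0.31 to 0.42). Gm3219 met the level rule through the cytokine groups (3.91 RPKM with no IL-2, against 6.07 and 6.36 RPKM).

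Pseudogenes that fell included 6820431F20Rik, at 185 RPKM, with 378, 361 and 379, then 218, 265 and 261, then 234, 260 and 216. It was 1.5-fold and 1.58-fold lower. Tyms-ps, a copy of thymidylate synthase, had 46.6, 31.4 and 27.8, then 14.8, 5.93 and 22.3, then 17.5, 6.96 and 3.63 (-1.30, adjusted p = 0.076, and -1.93, adjusted p = 0.016, edgeR), the largest fall among members. Its ortho call was lost without no IL-2 replicate 1 (-1.67, adjusted p = 0.060), and its WT difference was called without WT IL-2 replicate 3 (-1.76, adjusted p = 0.044). Olfr856-ps1 (-0.79, not called, and -1.31) and Gm15645 (-0.93, not called, and -1.22) had the same spread, highest in the first library without IL-2 and lowest in the third with ortho IL-2. The ortho call of Olfr856-ps1 was lost without no IL-2 replicate 1 or 2 or ortho IL-2 replicate 2 or 3 (-1.31 to -0.98), and that of Gm15645 without no IL-2 replicate 1 or ortho IL-2 replicate 2 or 3 (-1.15 to -0.89); without WT IL-2 replicate 3 Gm15645 was called with WT IL-2 (-1.24). H2-K2, a class I histocompatibility pseudogene at 145 RPKM, was not called (-0.13 and -0.04), except with WT IL-2 when WT IL-2 replicate 1 was left out (-0.18, adjusted p = 0.037). Znf41-ps fell 1.31-fold and 1.43-fold, and its WT call was lost without any 1 of the libraries without IL-2 or WT IL-2 replicate 1 or 3 (-0.43 to -0.25). It met the level rule through the libraries without IL-2 (5.59 RPKM, against 4.95 and 4.72 RPKM). Of the genes now listed as coding, 0610012G03Rik rose 1.48-fold and 1.64-fold and BC029722 1.33-fold and 1.30-fold. 0610012G03Rik met the level rule through the cytokine groups (3.74 RPKM with no IL-2, against 6.46 and 7.48 RPKM). The calls of BC029722 were lost without no IL-2 replicate 1 or 2, for WT IL-2 also without its replicate 1 or 2 (0.33 to 0.41) and for ortho IL-2 without its replicate 1 or 3 (0.30 to 0.38).

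The last question was whether the 2 cytokines differed. No gene was called between ortho IL-2 and WT IL-2 at their unequal amounts (0 of 10702 by edgeR and 0 by DESeq2, with 149 genes, or 1.39%, at an unadjusted p under 0.05). Of the members 0 were called (background 0.0%), and 5 pseudogenes, no host and no other lncRNA had an unadjusted p under 0.05. The groups did not overlap in 4.65% of all genes and in 7 members. Ortho IL-2 was the lower group in 2 of these, Snhg1 and Arhgap27os3 (2.23% of all genes), and the higher group in 5, Gm12070, Gm1821, Gm5523, Snhg15 and Firre (2.42% of all genes). Gm12070 was the clearest by its interval, with a log2 difference of 0.17 and a 95% interval of 0.04 to 0.29.

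A missed threshold does not show that the cytokines act alike, so intervals were set beside it. The 95% interval of ortho minus WT lay within 1.5-fold either way for 133 of the 152 members, for 12 of 13 hosts and for 48 of 59 other lncRNAs, including 46 of the 46 with a low spread. The 46 were picked for a low spread within groups, on which interval width depends. Their count was therefore in part set by that choice. The host whose interval reached beyond was Rab26os (0.19, -0.27 to 0.65). Intervals were narrow in Snhg5 (0.01, -0.12 to 0.14), Gas5 (0.02, -0.10 to 0.13), Neat1 (-0.01, -0.22 to 0.20), Pvt1 (-0.03, -0.16 to 0.10) and Flicr (0.03, -0.16 to 0.22). They were wide in 5430437J10Rik (-0.57, -1.99 to 0.85) and Gm20337 (-0.50, -1.31 to 0.31), where a difference in either direction was not detectable. The differences of all members ranged from -0.62 to 0.29.

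**Figure D5:**
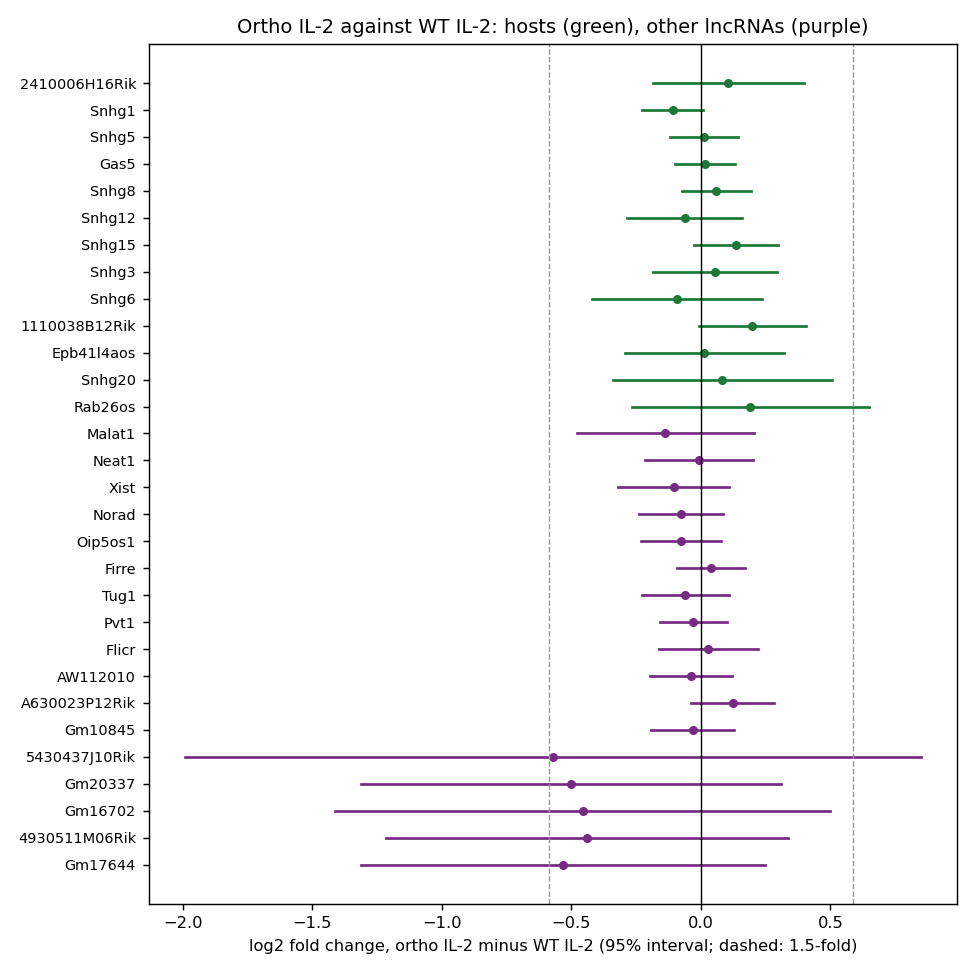
Log2 fold change of ortho IL-2 against WT IL-2 (edgeR, points) with its 95% interval (lines), for the 13 snoRNA hosts (green) and 17 other lncRNAs (purple); dashed lines mark 1.5-fold. All intervals reach across 0, and those of the 5 genes with a wide spread at the bottom reach past the dashed line on the left.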

How the data were processed

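RNA of 9 bulk cultures was measured by RNA-seq, 3 libraries a group. Per the file headers, each deposited table of the authors gives, for every RefSeq transcript, a whole-number read count and an RPKM value on mm10. The tools named, per the submitters' processing notes and with no role given, are edgeR, bedtools 2.25.0, TopHat2, Bowtie2 and SAMtools 0.1.8; which of them counted reads, and whether strand was used, is not stated there. The transcript with most reads over the 9 libraries was kept for each symbol.

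Counts of the 10702 symbols with at least 1 RPKM in at least 3 libraries were fitted across all 9 libraries with edgeR 4.0.16 (R 4.3.3, TMM, quasi-likelihood test, Benjamini-Hochberg adjusted p under 0.05), tested on simulated data. Levels are TMM-scaled CPM per kilobase. Intervals are at 95% from the standard error. A count of 0 would allow up to 3 reads, at most 0.181 CPM. Alternatives were DESeq2 1.42.0, the RPKM divisor as library size, no filter, summed transcripts, only the compared groups, the outside share as covariate, GC offsets, a replicate block and leaving out each library.

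Members were classed by RefSeq (121 matched by accession, 12 by symbol, 3 by older symbol, 14 on another chromosome, 2 unmatched) and GENCODE vM21 (135 matched); GC content was available for 145. Members and gene lists were chosen with earlier results of these data known. Named were all hosts, the 10 largest rises and falls per comparison among called members without overlap, a list of known lncRNAs, the 10 highest members, those around the threshold, and up to 3 genes of each list by smallest p (58 members); 9 more were chosen after their values were seen. Same-numbered libraries had correlations of -0.66 to 0.44 in their deviations from group means, and differently numbered ones -0.57 to 0.60. Deviations from a mean of 3 libraries are tied to one another, so this cannot decide whether numbers pair libraries.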

Additional observations from a re-analysis of the deposited data

How the results depend on the processing

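The count of members moved with the level rule, to 241 at 2.5 RPKM and 98 at 10 RPKM. With the outside share as covariate, all genes called were 2130 for WT IL-2 and 1573 for ortho IL-2, members called 24 and 17, hosts 1 and 1, other lncRNAs lower 13 and 8 and higher 3 and 1. The median log2 fold changes were then 0.028 and 0.0040 for all members, -0.10 and -0.13 for hosts, 0.036 and 0.019 for members other than hosts, and -0.037 and -0.072 for other lncRNAs, with 0.013 for hosts between the cytokines. Signs of values called in either fit changed in both comparisons for 4930470H14Rik (0.27, 0.22), 4930511M06Rik (0.36, 0.26), 5430437J10Rik (1.43, 1.41), D330041H03Rik (0.083, 0.17), Gm16702 (0.76, 0.75) and Gm20300 (0.19, 0.22), with WT IL-2 for Gm20337 (0.11), and with ortho IL-2 for BC029722 (-0.033), Gm15645 (0.76), Gm17644 (0.33), Olfr856-ps1 (1.03) and Tyms-ps (0.81); the cause was not tested. The RPKM divisor as library size, which shifts the median of all genes, gave hosts called 5 and 9, other lncRNAs higher 14 and 15 and lower 19 and 22, and medians of 0.17 and 0.20 for members, 0.26 and 0.38 for hosts, 0.13 and 0.17 for members other than hosts and -0.14 and -0.10 for other lncRNAs; between the cytokines these were 0.027, 0.12 and 0.026 for members, hosts and members other than hosts. Values below 0 that were not called became called rises for 1700020I14Rik (0.21, 0.19) and, with ortho IL-2, for 2900097C17Rik (0.21), 6720401G13Rik (0.28), Gm12191 (0.25) and H2-K2 (0.24); other values that were not called, such as those of Xist (0.10, 0.06), changed sign without a call. The median of members with ortho IL-2 was -0.085 by DESeq2, -0.020 with GC offsets and -0.020 with the replicate block and GC offsets. GC offsets gave 11 other lncRNAs higher with ortho IL-2. Without the filter, medians were 0.011 and -0.0016 for members and -0.030 and -0.034 for members other than hosts.

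Leaving out 1 library at a time gave 4 to 6 other lncRNAs higher with WT IL-2 (4 without no IL-2 replicate 1 or 3), a median of members with ortho IL-2 of -0.10 to -0.070, and a median of hosts between the cytokines of -0.018 to 0.082. It ended a call of each of 4930470H14Rik, 4930511M06Rik, 5430416N02Rik, 5430437J10Rik, 9130221H12Rik, BC029722, D330041H03Rik, Fam120aos (without no IL-2 replicate 2, -0.29 and -0.32, or WT IL-2 replicate 1, -0.34), Gm15645, Gm16702, Gm17644, Gm20300, Gm20337, Gm3219, Olfr856-ps1, Raver1-fdx1l, Tyms-ps and Znf41-ps. With the replicate block, members called were 60 (WT IL-2) and 78 (ortho IL-2), and 7 values of named members lost their call; the samples share only a number. Between the cytokines 19 members had intervals that reached beyond 1.5-fold, so a difference of that size is not excluded there.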
